A study of Vitis vinifera with 12 samples.

Results

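The 6 berry arrays were compared with the 2 root arrays of a grapevine (Vitis vinifera cv Corvina) small RNA experiment, to name the miRNAs that berries and roots shared and those that were high in one of them. These 8 arrays, of 12 in the series, were chosen by their labels alone. Berries had 2 arrays at each of 3 stages, green (before veraison, 5 weeks after flowering), veraison (the onset of ripening, 9 weeks) and mature (15 weeks), and roots had 2 arrays. All samples are of 1 cultivar, and the labels name no mutant, transgene or treatment in berries or roots. Berries were harvested in the field and freed of their seeds, whereas roots came from plants grown in vitro, so that organ and growth condition cannot be told apart in anything that follows. Berries and roots are labelled as pools, and each of the 2 arrays of a tissue took low molecular weight RNA from its own extraction, so that p-values measure the spread between extractions and their arrays.

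MiRNAs are short RNAs that DCL1 (Dicer-like 1) cuts from hairpin precursors and that guide an Argonaute protein to mRNAs carrying a complementary site. In plants the pairing covers most of the miRNA, and a conserved family usually acts on mRNAs of 1 gene family, often transcription factors of development or proteins of nutrient use. Members of a family come from several loci and may differ by a single base, which a hybridization probe resolves only in part. The bases at positions 2 to 8, the seed, weigh most in the pairing.

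Signal was read from probes whose complement shared at least 18 bases in a row with a mature miRNA of the study's list. There were 207 such perfect match probes, of 1947 on the array, with 141 distinct sequences, and they covered 66 miRNAs of 27 families. Each miRNA was read from its longest-matching probe. A miRNA counted as present in a tissue if, on both arrays, its intensity before normalization was above the background of that array (the mean plus 2 SD of 14 negative and degradation controls) and above 1.2 times that of the probe's partner with 2 mismatches. Differences were tested on the log2 of the intensities that the authors had quantile-normalized. They are given as berries minus roots, where the berry level is the mean of the 3 stage means, with the standard error (SE) of limma's fit and a p-value adjusted over all 1947 probes (Benjamini-Hochberg, threshold 0.05).

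The background lay between 666 and 2374 on the berry arrays and at 1347 and 1494 on the root arrays. The ubiquitin control, which is part of it, itself read above this limit on every berry and root array. It read 2137 and 2346 on the root arrays and from 931.75 (mature berries 1) to 3611.5 (green berries 1) on the berry arrays. Statements of signal below background and the fold bounds therefore depend on this control, and the bounds were not computed without it. The median intensity of the miRNA probes was 42 to 188 on the berry arrays, against 42 and 3.5 on the root arrays, so that most probes gave little signal and the background limits what can be seen. Intensities of 1, the lowest value, made up 30.6% and 55.2% of the probes on the root arrays and up to 32.6% on the berry arrays (green berries 2). They had received normalized values of up to 46.8 and 79.98 on the root arrays and up to 48.4 on green berries 2. These rose with the order of the rows in the file (Spearman's rho of at least 0.999), so that normalized values in this range hold no information. Across the 66 miRNAs, which share arrays and families, Pearson's r between the log2 levels of replicate arrays was 0.841 in green, 0.963 in veraison and 0.895 in mature berries and 0.955 in roots. Apart from the degradation controls the array holds no probes for mRNAs, so that the tissue labels could not be checked against marker genes.

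The sequences below are those that carry the differences and the shared signal, as the complement of the deposited probe written as RNA. Capitals mark the seed as counted from the 5′ end in the study's list of mature miRNAs. The probes of miR397a, miR398b, miR408 and miR395a begin 1 or 2 bases ahead of that end.
High in roots were 3 miRNAs of mRNAs for copper proteins:
miR397a: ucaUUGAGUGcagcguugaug
miR398b: ucUCAUGUGuucucaggucg
miR408: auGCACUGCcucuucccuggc
Present in berries and not in roots were 6 miRNAs:
miR395a: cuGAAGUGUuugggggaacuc
miR169f: cAGCCAAGgaugacuugccga
miR169l: gAGCCAAGgaugacuugccgu
miR393b: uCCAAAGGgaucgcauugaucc
miR319g: aUUGGACUgaagggagcuccc
miR171h: uGGUUGAGccgcgccaauauc
Present in roots and at every berry stage were 5 miRNAs:
miR159c: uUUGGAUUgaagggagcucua
miR319e: uUUGGACUgaagggagcucc
miR166a: uCGGACCAggcuucauuccuc
miR166c: uCGGACCAggcuucauuccccu
miR167b: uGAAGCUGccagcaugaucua
The 3 miRNAs high in roots each had a seed that no other of the 66 carried, whereas miR169f and miR169l shared the seed AGCCAAG with 7 further members of their family. The probes of miR169f and miR169l differed at 2 bases, those of miR166a and miR166c at 1, those of miR319e and miR319g at 1, and those of miR159c and miR319e at 2, so that signal may be shared within each of these pairs.

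Of the 66 miRNAs, 20 were present in at least 1 of the 4 tissues. There were 10 present both in roots and in at least 1 berry stage, 6 present in berries and not in roots, and 4 present in roots and at no berry stage. Over all 1947 probes the same 3 classes held 3.08%, 2.62% and 1.54% of the probes. By tissue, 8 miRNAs were present in green, 14 in veraison and 9 in mature berries, and 14 in roots. The number of miRNAs above both limits on a single array moved with its background, with 8 on green berries 1, where the background was highest, and 28 on green berries 2. Without green berries 1 the miRNAs present in berries and not in roots numbered 16 and those present in roots alone 2. Without mature berries 2 the first count was 12, without veraison berries 2 it was 9, and without roots 1 and roots 2 the count of miRNAs present in roots alone was 7 and 6. Without the ubiquitin control in the background, 20 miRNAs were shared, 12 were present in berries alone and 14 in roots and every berry stage. The classes are therefore read with the values of each miRNA. The study listed more miRNAs in each of these tissues, and its methods do not state that both arrays must pass. Its list has miR395a, miR393b, miR319g and miR171h in roots, and miR397a, miR398b, miR408 and miR159a in at least 1 berry stage.

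**Figure D1:**
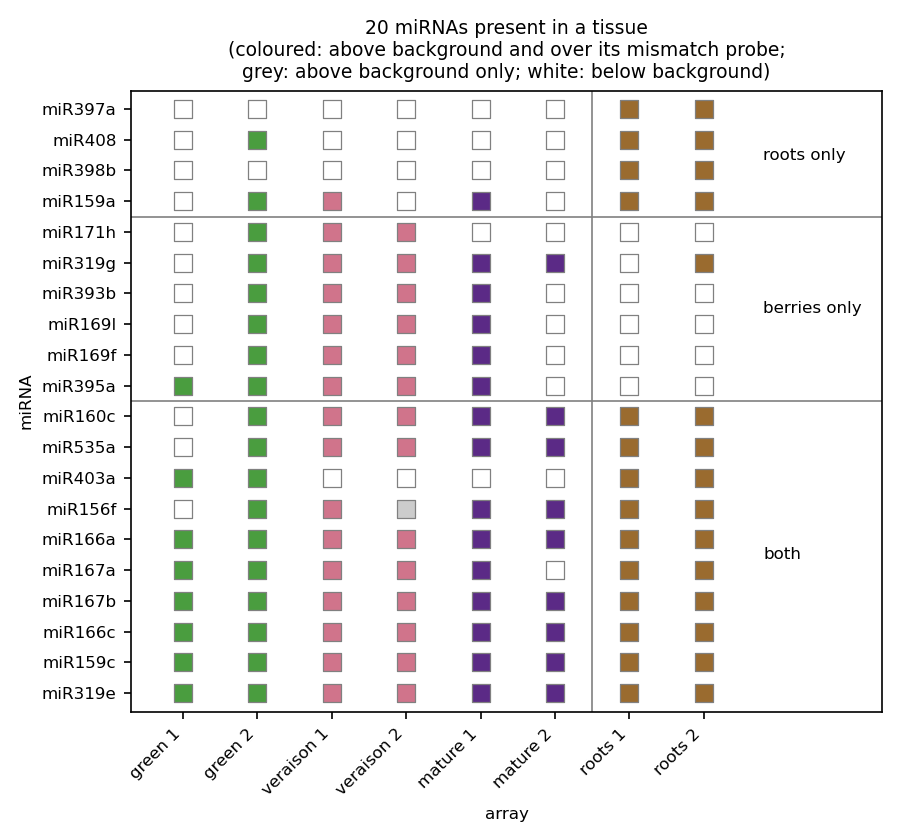
Presence of 20 miRNAs (rows) on the 6 berry arrays and the 2 root arrays (columns). Coloured squares are above background and above 1.2 times the mismatch probe, grey squares above background only and white squares below background. miR397a and miR398b are white on all 6 berry arrays, and miR395a, miR169f, miR169l, miR393b and miR171h are white on both root arrays.

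The clearest difference was that of the miRNAs of mRNAs for copper proteins, which were high in roots and at or near background in berries. miR397 acts on laccases, miR398 on copper/zinc superoxide dismutases and miR408 on plantacyanin, a small blue copper protein, and in Arabidopsis thaliana these families accumulate when copper is scarce. Of the 4 members measured, 3 fell in berries relative to roots, where 2.72% of all probes were called in that direction, and miR398a was below background on all 8 arrays. The median difference of the list was -6.36 log2 units, against -0.03 for all 1947 probes.

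miR397a had normalized intensities of 264 and 541 in green, 274 and 201 in veraison and 78.7 and 201 in mature berries, against 19457 on both root arrays, which gave it the same rank. All berry arrays were below background and no berry value came near the roots. Before normalization the berry arrays read between 186 and 417.5, against 21783 and 26441.5 on the root arrays. The difference was -6.44 log2 units (SE 0.54, limma's adjusted p = 1.63e-05), and since the berry level is only bounded, miR397a was at least 12.8-fold lower in berries. For this and the following bounds, each array of the lower tissue was set at the higher of its own value and the lowest normalized value above background on that array.

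miR398b had 85.7 and 138 in green, 54.3 and 44.5 in veraison and 128 and 35.1 in mature berries, against 7763 and 4091 in roots. It was below background on every berry array, and both root arrays were above it. The difference was -6.31 log2 units (SE 0.58, adjusted p = 3.5e-05), which gave a level at least 3.70-fold lower in berries. Another probe of the same sequence differed by -6.26 log2 units. On the root arrays the perfect match probe read 157 and 5876 times its mismatch partner.

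miR408 had 139 and 1291 in green, 438 and 436 in veraison and 545 and 983 in mature berries, against 35574 and 54207 in roots. Only green berries 2 was above background, where miR408 read 992.5 before normalization and 33.1 times its mismatch probe. On roots 2 the probe was at the scanner's limit of 65535, so that its level there is a lower bound. The difference was -6.42 log2 units (SE 0.77, adjusted p = 0.000269), with at least a 27.1-fold lower level in berries when the arrays below background are set as above.

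These 3 miRNAs were called at each stage on its own, in comparisons that share the root arrays. For miR397a the difference was -5.69 log2 units in green (SE 0.66), -6.37 in veraison (SE 0.66) and -7.27 in mature berries (SE 0.66). For miR408 it was -6.70, -6.65 and -5.91 log2 units (SE 0.94 each), and for miR398b -5.70, -6.84 and -6.39 (SE 0.71 each). No difference among the berry stages was called for them, and their berry values below background have no reliable order. They stayed called under all 23 other settings, with differences between -8.57 and -5.51 log2 units over the 3.

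**Figure D2:**
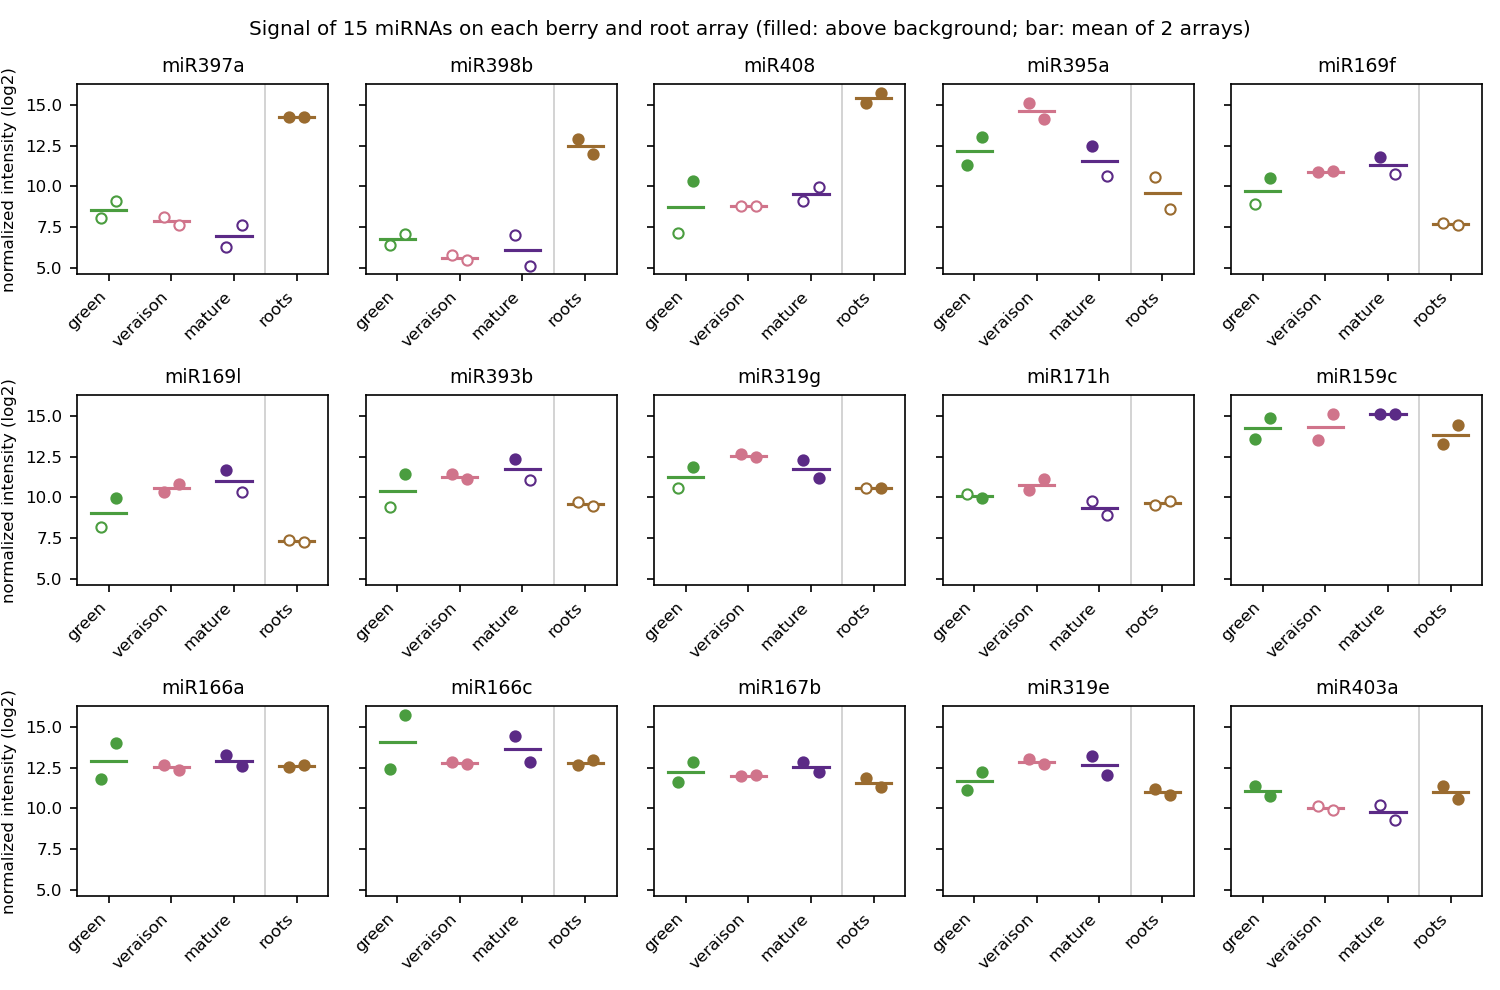
Normalized intensity (log2, vertical axis) of 15 miRNAs on each array of green, veraison and mature berries and of roots. Filled points are above background, open points below it, and bars are the mean of the 2 arrays of a tissue. miR397a, miR398b and miR408 lie far higher in roots, miR395a lies highest in veraison berries, and the values of miR166a in berries lie on both sides of those in roots.

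In the opposite direction, miR395a was the miRNA with the largest difference called in favour of berries. miR395 acts on mRNAs of ATP sulfurylases and of a sulfate transporter, which take part in sulfate uptake and assimilation. Its normalized intensity was 2592 and 8502 in green, 35574 and 17927 in veraison and 5626 and 1562 in mature berries, against 1504 and 389 in roots. All 6 berry values were above both root values, and mature berries 2 was close to roots 1. Roots 1 read 1218 before normalization, just under its background of 1347, and mature berries 2 read 1327.5, under its background of 1728.

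The difference of miR395a was 3.21 log2 units (SE 0.77, adjusted p = 0.0404), or 4.78-fold higher in berries with roots set as a bound. Over all berries this is no strict bound, since mature berries 2, below background, entered at its own value. At veraison the difference was 5.04 log2 units (SE 0.94, adjusted p = 0.0109), at least 17.1-fold. There miR395a was the only one of the 66 miRNAs called higher in that stage than in roots. In green berries its difference was 2.62 log2 units (SE 0.94, adjusted p = 0.263) and in mature berries 1.95 (SE 0.94, adjusted p = 0.445). The difference among the stages was not called (adjusted p = 0.553). The call of miR395a for all berries was lost without leaves 1 or 2 (adjusted p = 0.0563 and 0.0576), which only lend their spread to the fit. It was also lost without roots 1 (0.0781), roots 2 (0.494), green berries 2 (0.0651), veraison berries 1 (0.102) or 2 (0.0782) or mature berries 1 (0.0757), and its difference then lay between 2.23 and 4.18 log2 units. It was lost as well with the 8 arrays of berries and roots alone (0.0614), with berries as 1 group (0.131) and with intensities scaled to the 75th percentile (2.61 log2 units, adjusted p = 0.0730) or on the positive controls, which are U6 and 4 tRNA probes (1.66 log2 units, adjusted p = 0.491). The other member, miR395n, was below background on all 8 arrays.

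The miR169 family acts on mRNAs of NF-YA subunits of the CCAAT-binding transcription factor. Of its 13 members, 4 were called higher in berries (miR169b, miR169f, miR169l and miR169x), against 1.08% of all probes, and none was called higher in roots, against 2.72%. Of these, miR169b read only 0.93 to 1.17 times its mismatch probe on the green and veraison arrays, under the limit of 1.2. The differences of all 13 were above 0 with the deposited normalization (11 of 13, and none called, with scaling on the positive controls), but 5 members were below background on all 8 arrays and their signs have no reliable order. The median was 2.20 log2 units, against -0.03 for all probes. No member was above background on either root array, and 8 were above it on at least 1 berry array, so that the root level of every member is only bounded. The members are not independent, since up to 9 members shared a seed and members differed at few bases.

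miR169f had 475 and 1462 in green, 1913 and 1938 in veraison and 3521 and 1767 in mature berries, against 218 and 199 in roots. Every berry array was above both root arrays, with green berries 1 the lowest of the 6. Its difference was 2.93 log2 units (SE 0.70, adjusted p = 0.0404), which with roots set as a bound allows no more than a statement of at least 1.08-fold. At veraison, where both arrays were above background, the bound was 1.30-fold. On the berry arrays the probe read between 8.06 and 36.5 times its mismatch partner.

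miR169l had 284 and 1007 in green, 1295 and 1808 in veraison and 3296 and 1295 in mature berries, against 170 and 156 in roots. Its difference was 2.87 log2 units (SE 0.69, adjusted p = 0.0420), with no bound above 1 over all berries and at least a 1.04-fold level at veraison. In mature berries alone it was called at 3.67 log2 units (SE 0.85, adjusted p = 0.0485), as were miR169b and miR169x. The calls of miR169f and miR169l were lost without roots 1 (adjusted p = 0.241 and 0.246), roots 2 (0.302 and 0.313), green berries 2 (0.0678 and 0.0682), veraison berries 1 (0.0898 and 0.0874), veraison berries 2 (0.0881 and 0.0941) or mature berries 1 (0.0749 and 0.0757), and when the positive controls set the scale (0.403 and 0.344). That of miR169l was lost also with 50 added before taking the log2 (adjusted p = 0.0517) and with berries as 1 group (0.0564). Their differences without an array stayed between 2.57 and 3.20 log2 units. miR169x, above background on 1 berry array, differed by 2.80 log2 units (SE 0.67, adjusted p = 0.0404). It lost its call without the same arrays (adjusted p from 0.0682 without green berries 2 to 0.287 without roots 2), with 50 added before taking the log2 (0.0542) and with scaling on the positive controls (0.155).

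Another 3 miRNAs were present in berries and not in roots but did not pass the test. miR393b, which acts on mRNAs of TIR1/AFB auxin receptors, had 684 and 2738 in green, 2817 and 2194 in veraison and 5279 and 2173 in mature berries, against 830 and 714 in roots. Green berries 1 lay below both root arrays and the other 5 above them. The difference was 1.55 log2 units (95% interval -0.65 to 3.76, adjusted p = 0.582). miR319g, of a family that acts on TCP transcription factors, had 1545 to 6366 in berries (median 4388), against 1500 and 1550 in roots, where roots 2 was above background and over its mismatch probe. It differed by 1.27 log2 units (interval -0.09 to 2.62, adjusted p = 0.384). miR171h, of a family that acts on GRAS-domain transcription factors, had 1386 and 2217 in veraison berries, against 739 and 876 in roots, and 489 to 1193 in the other berry arrays. Its difference was 0.43 log2 units (interval -0.72 to 1.57, adjusted p = 0.830), so that its presence in berries alone rests on veraison.

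**Figure D3:**
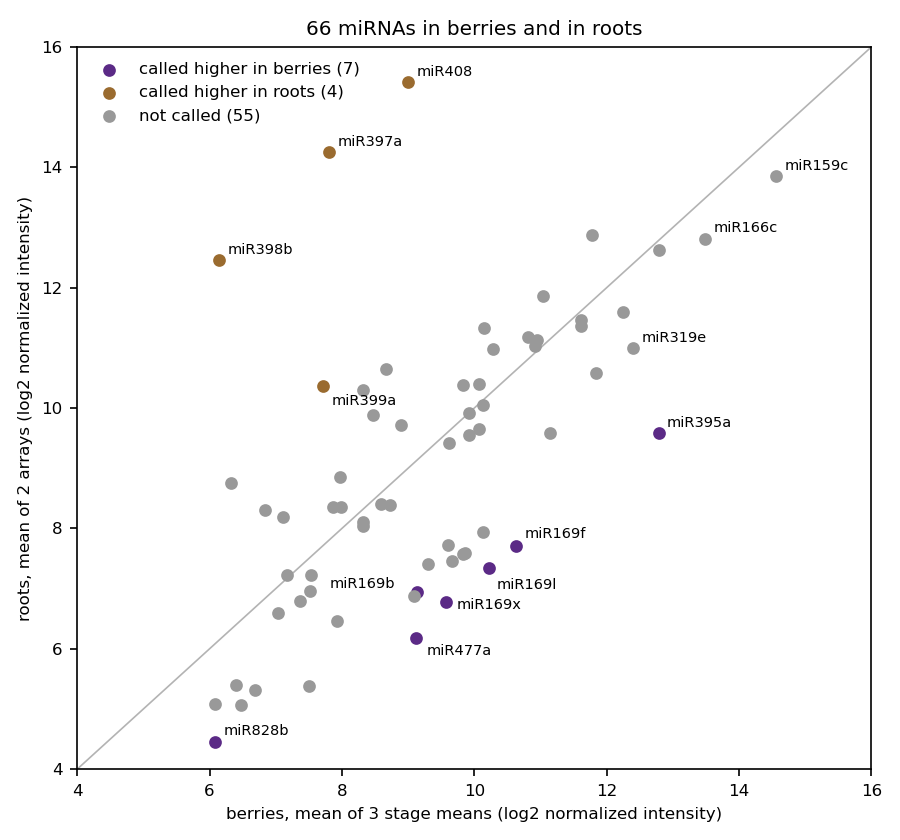
Mean log2 normalized intensity of 66 miRNAs in berries (horizontal axis, mean of 3 stage means) and in roots (vertical axis, mean of 2 arrays), with the line of equal levels. Of the miRNAs, 7 were called higher in berries and 4 higher in roots. miR397a, miR398b and miR408 lie about 6 log2 units above the line, and miR828b, the lowest called one, was below background on all 8 arrays.

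The miRNAs shared by roots and all 3 berry stages were miR159c, miR166a, miR166c, miR167b and miR319e, 5 of 66, while 1.8% of all probes met the same rule. They belong to families that act on mRNAs of transcription factors of development, namely GAMYB-like factors (miR159), class III HD-ZIP factors (miR166), auxin response factors (miR167) and TCP factors (miR319). None was called different, and the intervals leave room for sizeable differences in either direction.

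miR159c had 12516 and 29963 in green, 11996 and 35574 in veraison and 35574 on both arrays of mature berries, against 9857 and 22212 in roots. Its difference was 0.71 log2 units (SE 0.79, 95% interval -1.0 to 2.43), and the roots lay within the range of the berry arrays or just below it. On each of the 8 arrays the probe read at least 50.4 times its mismatch partner. miR319f shares this probe and could not be told apart from miR159c.

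miR166a had 3575 and 16653 in green, 6584 and 5190 in veraison and 9857 and 6233 in mature berries, against 6019 and 6584 in roots. The roots lay in the middle of the berry values, and the difference was 0.17 log2 units (interval -1.70 to 2.04). On the other probes of equal match, miR166a differed by -0.07, -0.05 and -0.36 log2 units, none called. For miR166c the berry arrays spread from 5461 on green berries 1 to 54207 on green berries 2 (median 7345), against 6464 and 8018 in roots. It differed by 0.68 log2 units (interval -1.65 to 3.01) on this probe and by -0.69 on the other of equal match, neither called.

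miR167b had 3190 and 7224 in green, 4091 and 4190 in veraison and 7224 and 4741 in mature berries, against 3710 and 2557 in roots. It differed by 0.66 log2 units (interval -0.91 to 2.24). miR319e had 2264 and 4817 in green, 8248 and 6848 in veraison and 9576 and 4238 in mature berries, against 2295 and 1808 in roots, with only green berries 1 below a root array. Its difference was 1.41 log2 units (interval -0.07 to 2.89, adjusted p = 0.369). The signs of these 5 differences rest on the scaling, since with intensities scaled on the positive controls all 5 were below 0, between -1.71 and -0.56 log2 units, and again none was called. Those of miR166a and miR166c rest also on the probe read.

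A further 5 miRNAs were present in roots and in 1 or 2 berry stages. miR160c, of a family that acts on auxin response factors, was present in veraison and mature berries and had 1258 to 7466 in berries (median 3685), against 4190 and 13392 in roots. miR535a, close to miR156 in sequence, had 820 and 1556 in green and 5575 and 3127 in mature berries, against 5797 and 2374 in roots. miR156f was present in mature berries, miR167a in green and veraison berries. miR403a, which acts on AGO2 mRNAs, was present only in green berries among the stages, with 2642 and 1752 there, 628 to 1196 in later berries, and 2710 and 1523 in roots. None of the 5 was called, with differences between -1.09 and 0.26 log2 units.

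miR159a was present in roots and at no berry stage as a whole, although it was above both limits on 1 array of each stage. It had 1072 and 3127 in green, 1752 and 1371 in veraison and 2030 and 2003 in mature berries, against 2374 and 2264 in roots. Its difference of -0.37 log2 units (interval -1.64 to 0.89, adjusted p = 0.860) was within the spread of the berry arrays.

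Over the 66 miRNAs, 7 (with miR828b, which had no signal above background) were called higher in berries and 4 higher in roots, with a median difference of 0.29 log2 units. Over the 207 probes, which hold several forms of the same miRNAs, 14 (10 sequences) were called higher in berries and 13 (9 sequences) higher in roots, against 1.08% and 2.72% of all probes called in each direction. At limma's unadjusted p under 0.05 the counts were 59 and 21 of the 207 probes, against 150 and 144 of all 1947. The split moved with the scaling, with 2 higher in berries and 22 higher in roots after scaling on the positive controls, 46 and 13 with no normalization, 27 and 14 with quantile normalization over the miRNA probes alone, and 8 and 14 with 50 added before taking the log2. Calls under these settings were not counted over all probes. All 6 berry arrays were above both root arrays for 18 of the 66 miRNAs, against 6.83% of all probes, and below both for 11, against 7.96%. Both counts include miRNAs below background on all 8 arrays, named here only for this limit. In the first they were miR169r, miR169y, miR395n, miR399f, miR828a, miR828b and miR845a. In the second they were miR171b, miR398a, miR399b, miR399e and miR399g. Of the called probes, 1 higher in berries and 3 higher in roots were below background on all 8 arrays.

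Stage by stage, the same root arrays served 3 comparisons. Of the 207 probes, none was called higher in green berries than in roots by limma, against 0.205% of all probes, and 7 were called higher in roots, against 1.54%. At an unadjusted p under 0.05, 24 of the 207 were higher in green berries, against 113 of all 1947. At veraison 11 were called higher in berries and 8 higher in roots, against 1.39% and 1.75%, and in mature berries 3 and 7, against 0.308% and 1.69%. The 11 probes higher at veraison had 2 distinct sequences, both forms of miR395a. Without roots 2 or either veraison array, 7 probes in all were called at veraison. Among all 66 miRNAs no difference between the 3 berry stages was called (lowest adjusted p = 0.553, with 3 at an unadjusted p under 0.05), and the log2 levels of the stages had a Pearson correlation with those of roots of 0.670 in green, 0.551 in veraison and 0.539 in mature berries.

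**Figure D4:**
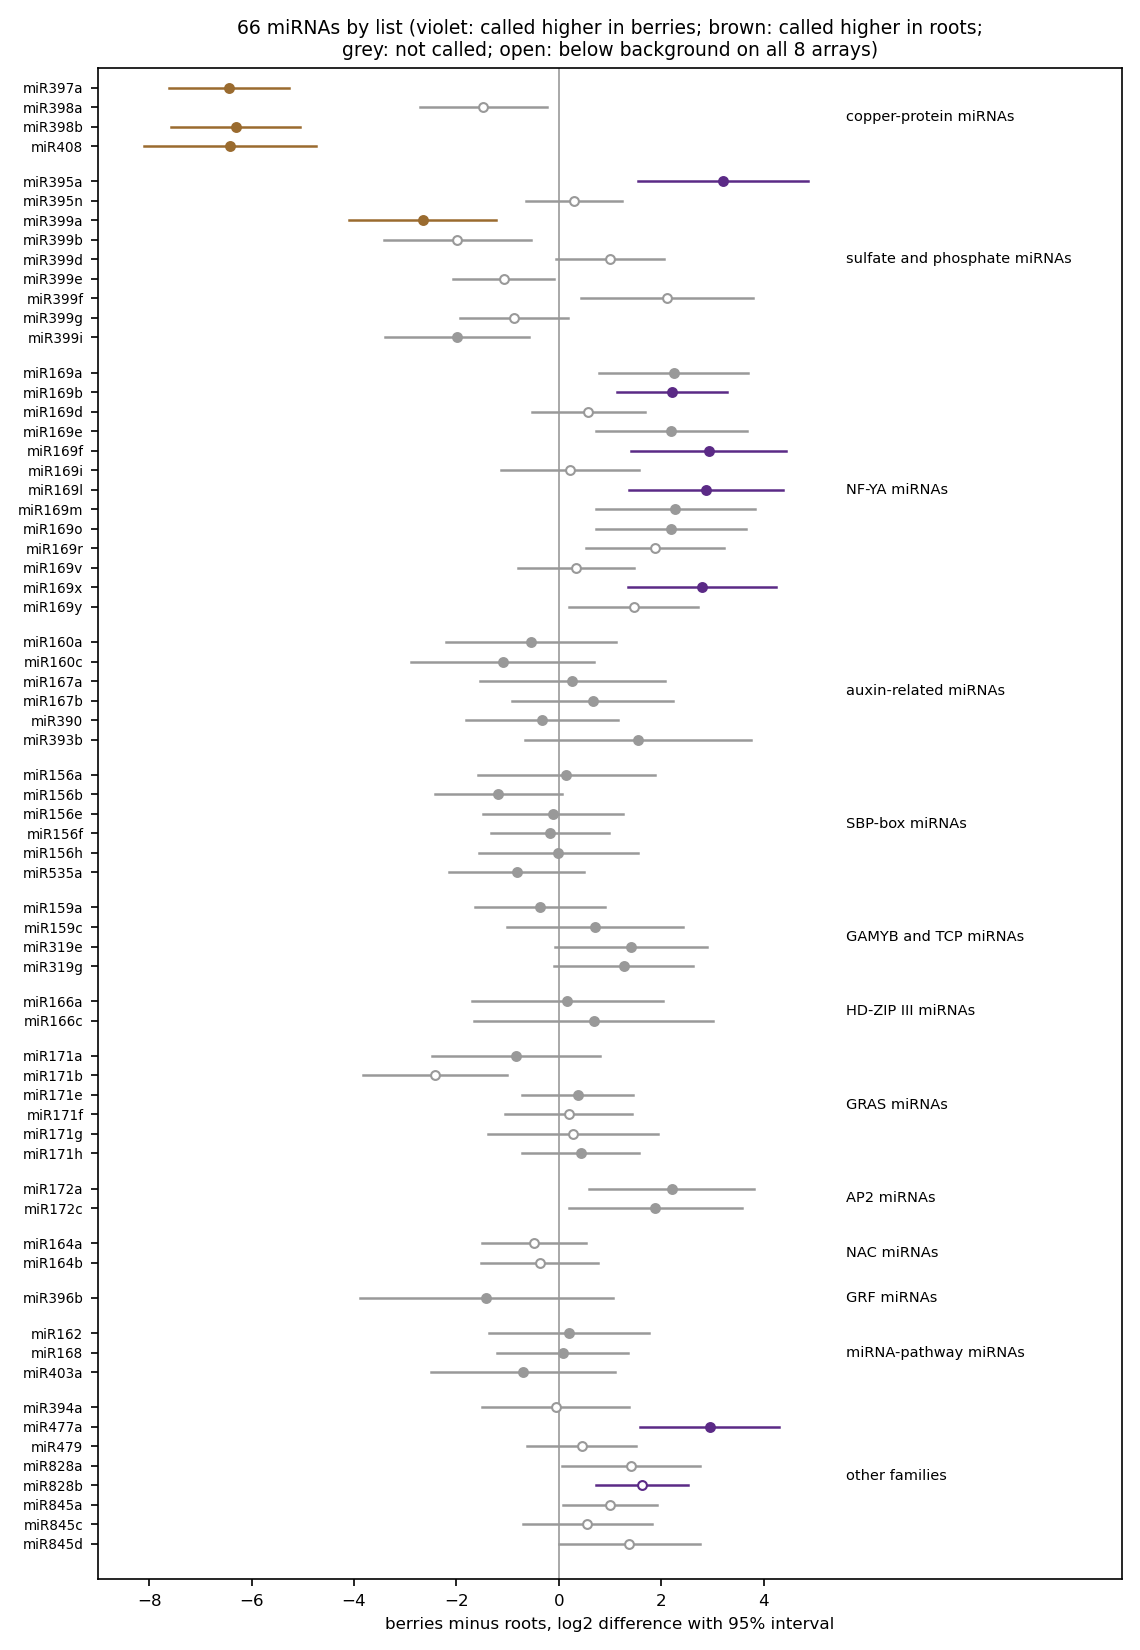
Difference of 66 miRNAs between berries and roots (log2, horizontal axis) with its 95% interval, by list of families (rows). Brown marks those called higher in roots, violet those called higher in berries and grey those not called, and open points were below background on all 8 arrays. The 3 brown points of the copper-protein list lie beyond -6, and all 13 of the miR169 family (NF-YA list), 5 of them open, lie above 0.

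Among the remaining lists, miR399 of the phosphate response acts on mRNAs of the ubiquitin-conjugating enzyme PHO2. Of its 7 members, 5 had a difference below 0 and 2 above it, which were miR399d (1.003 log2 units, adjusted p = 0.373) and miR399f (2.12 log2 units, adjusted p = 0.182), both below background on all 8 arrays and named after their values were seen. On the probe read for each miRNA, miR399a was the only member called, where 2.72% of all probes were called higher in roots. Shorter probes of miR399b were called as well, at -2.67, -2.50 and -2.47 log2 units (limma's adjusted p = 0.0391, 0.0368 and 0.0427). The last of these probes was above background on both root arrays. miR399a had 132 to 402 in berries (median 185), against 1083 and 1614 in roots, of which 1 array was above background. Its difference was -2.66 log2 units (SE 0.66, adjusted p = 0.0465), and leaving out any array but inflorescences 1 and 2 and green berries 2 ended the call, with adjusted p from 0.0522 without mature berries 1 to 0.415 without roots 2. miR399i had 159 to 974 in berries (median 380), against 1556 and 1662 in roots, and differed by -1.98 log2 units (adjusted p = 0.130). Its probe matches miR399b over 20 bases and miR399i over 18, so that the signal cannot be told apart from that of miR399b. With both scalings, to the 75th percentile and on the positive controls, miR399i was called (adjusted p = 0.0027 and 0.00164).

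Of the 6 auxin-related miRNAs, 3 were shared and 1 was present in berries alone, and none was called (median -0.03 log2 units). Of the 6 SBP-box miRNAs (miR156 and miR535, which act on SBP-box factors of phase change), 2 were shared and none was called. miR156b lay below both root arrays on all 6 berry arrays, with 954 to 1366, against 3893 and 1699 in roots, and differed by -1.18 log2 units (adjusted p = 0.369). Its probe read 0.25 to 0.79 times its mismatch partner in berries and 1.19 and 0.71 times in roots, under the limit of 1.2. Both miR172 members, which act on AP2-like factors, had higher values on all 6 berry arrays. miR172a had 312 to 1890 (median 467), against 92.9 and 150, a difference of 2.21 log2 units (adjusted p = 0.139) that was called with no normalization (0.00056) and with scaling to the 75th percentile (0.00642). miR172c differed by 1.89 log2 units (adjusted p = 0.256), and was called with no normalization (0.00839). Each was above background on 1 berry array and on no root array.

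miR396b, which acts on growth-regulating factors, spread from 116 on mature berries 1 to 2497 on green berries 2, against 695 and 1295 in roots, and differed by -1.42 log2 units (SE 1.14, adjusted p = 0.677). miR162 and miR168, which act on DCL1 and AGO1 mRNAs, differed by 0.20 and 0.07 log2 units, with intervals of -1.36 to 1.76 and -1.21 to 1.36. Of the GRAS list, miR171a and miR171e differed by -0.83 and 0.37 log2 units, neither called. Both members of miR164, which acts on NAC factors, were below background on all 8 arrays.

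miR477a was the only miRNA of the remaining families above background, on green berries 2. It had 249 to 1324 in berries (median 485), against 56.1 and 92.6 in roots, with a difference of 2.95 log2 units (SE 0.62, adjusted p = 0.0242). The call was lost without roots 1 (adjusted p = 0.246), roots 2 (0.147), veraison berries 1 (0.0564) or veraison berries 2 (0.0563). Since neither root array and only 1 of 6 berry arrays was above background, no fold is given. miR169b, called at 2.21 log2 units (adjusted p = 0.0336), was above background on 1 berry array. On the green and veraison arrays it did not reach 1.2 times its mismatch probe. miR828b was called as well, but before normalization it read 1, the lowest value, on both root arrays and less than its mismatch probe on all 8 arrays, so that its difference holds no information on its level and is not given. Both fall outside the rule for naming and were named after their values were seen.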

How the data were processed

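Low molecular weight RNA (3 µg per array, Cy5) was hybridized to a custom CombiMatrix array with 1 sample per array. The authors deposited, for each array, the median intensity over the replicate spots of a probe, linear and not normalized, and a table of intensities that they had quantile-normalized over all 3973 probes of the 12 arrays. In the deposited table every array has the same sorted values. Slides were stripped and used again, and the sources used here give neither the slide of each array nor any subtraction of local background. Intensities before normalization gave the background and the presence of a miRNA, with the limits of the study's methods. That both arrays of a tissue had to pass them is a rule set here, which those methods do not state. The log2 of the normalized intensities was fitted with lmFit and eBayes (with an intensity trend) of limma 3.58.1 in R 4.3.3, on 12 arrays in 6 tissues, with no filter. Precision is limited by the 2 arrays per tissue and by how far signals stand above background.

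Of 73 mature sequences of the study's list, 72 matched a probe over 18 bases or more. Those that shared a best probe were read as 1 miRNA, which left 66, and where several probes matched equally the one with the highest mean over the 8 arrays was read. Of the 140 loci, 129 have a gene in RefSeq (ASM3070453v1), and no coordinates are given since the files name no build. Named are up to 10 miRNAs per direction with the largest called difference, signal and no overlap of berry and root arrays, all those present in roots and every stage or in roots or berries alone, and up to 3 per list of families. The miRNAs, lists and tests were chosen with earlier results of these data known. The fit was tested on simulated data. Alternatives covered normalization, the pseudocount, the filter, the arrays in the fit, a replicate block, array weights, the methods' one-way test, the rules for presence and leaving out each array. The main fit had no replicate block. The deviations of equal replicate numbers correlated between -0.40 and 0.31 over the 207 probes. Since the probes are related and the slide of each array is not given, these values cannot exclude a batch shared by equal numbers. Leaves and inflorescences entered only the fit's estimate of the spread.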

Additional observations from a re-analysis of the deposited data

Results flagged for a closer look

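Among the 31 named miRNAs, the 6 berry arrays of miR172a had 1 value far from the others. Green berries 2 read 1890, and its gap to the next berry array was 0.664 of the whole range of the 6 on the log2 scale, which is above Dixon's 95% critical value. By chance about 1 in 20 groups passes such a limit. Without green berries 2 the difference of miR172a was still not called.

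miR162 was the one named miRNA with both arrays of a stage above both root arrays and both arrays of another stage below them. Both mature arrays (1350 and 785) were above both root arrays (697 and 675), a difference of 0.59 log2 units (adjusted p = 0.851), and both veraison arrays (650 and 487) were below them, at -0.29 log2 units (adjusted p = 0.947). The test of a difference among the 3 stages had an adjusted p of 0.9997, and only 1 of these 8 arrays was above background.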

How the results depend on the processing

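miR397a, miR398b and miR408 kept their call and direction under all 23 other settings. The counts of probes did not. Those higher in berries (14) became 27 with quantile normalization over the miRNA probes, 46 with no normalization, 2 with scaling on the positive controls, 8 with a pseudocount of 50, 6 with berries as 1 group, 24 with array weights, and 48 and 0 by the methods' one-way test before and after the Benjamini-Hochberg adjustment. Those higher in roots (13) became 22 with scaling on the positive controls, 8 over probes present in berries or roots and 25 by the unadjusted one-way test. For green berries (7) the count became 22 with no normalization, 22 with the 75th percentile and 19 with the positive controls as the scale. For veraison berries (19) it became 31 with quantile normalization over the miRNA probes, 51 with no normalization, 39 with the 75th percentile as the scale and 36 with array weights. For mature berries (10) it became 22, 30, 20 and 21 with these 4 normalizations in turn (quantile, none, 75th percentile, positive controls) and 18 with the 8 arrays alone. Leaving out each array in turn gave 0 to 20 probes higher in berries, 7 to 14 higher in roots, 7 to 8 in green, 7 to 26 in veraison and 6 to 14 in mature berries. With a replicate block the counts were 12 higher in berries, 13 higher in roots, 8 in green, 17 in veraison and 9 in mature berries.

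The 10 miRNAs shared and the 6 present in berries alone became 6 and 3 with a background of 3 SD, 20 and 12 without the ubiquitin control and 16 and 19 with signal on 1 of 2 arrays. Leaving out an array gave 10 to 12 shared, 5 to 16 in berries alone and 2 to 7 in roots alone.

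The scaling shifted the median of all probes from -0.03 log2 units. It became 0.56 with no normalization, 0.41 with the 75th percentile and 0.15 with the positive controls. The median of the 207 probes went from 0.18 to 0.52, -0.07 and -1.02 log2 units in the same order. In these settings intensities under 50 were set to 50 before taking the log2. Among the positive controls, U6 was at the scanner's limit on all of the 8 arrays but mature berries 1. Differences that were not called changed sign with scaling on the positive controls for miR159c (-1.36), miR162 (-1.35), miR166a (-1.71), miR166c (-1.48), miR167b (-1.33), miR168 (-1.51), miR171e (-1.16), miR171h (-1.13), miR319e (-0.56), miR319g (-0.67) and miR393b (-0.014). With the 75th percentile they did so for miR159c (-0.41), miR162 (-0.40), miR166a (-0.76), miR166c (-0.53), miR167b (-0.38), miR168 (-0.56), miR171e (-0.21) and miR171h (-0.18), and with no normalization for miR166a (-0.052). Leaving out an array gave -0.61 to 0.27 for miR156f, -0.13 to 0.53 for miR162, -0.20 to 0.54 for miR166a and -0.67 to 0.82 for miR168. The cause of these changes was not tested.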
